A study of Mus musculus with 6 samples.

Results

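The genes described here are 10 genes that are characteristic of blood vessel endothelium, Pecam1, Cdh5, Kdr, Tek, Tie1, Emcn, Eng, Flt1, Erg and Vwf. They were chosen by their gene symbol and not by a rule on measured values, but earlier results of these data were known at the time. All 10 were found among the 21937 genes measured, each with 1 row. The values come from chromatin immunoprecipitation with sequencing (ChIP-seq) of the mouse kidney lines mK3 and mK4, in which DNA bound to a modified histone is pulled down and counted. Both lines are labelled as immortalized lines from the metanephros, the embryonic kidney, at E11.5 in strain CD1. For mK3 and for mK4 there was 1 H3K4 library, 1 H3K27 library, both named after the antibody on the label, and 1 input library, which is chromatin sequenced without immunoprecipitation. The labels name no treatment, clone or further allele, and with 1 library per group no difference has a replicate check and no test was made.

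The files give whole reads over the exons of each gene, so a promoter contributes only where it overlaps an exon. Library totals over all genes lay between 311409 reads in the mK3 input and 714011 reads in the mK4 H3K4 library, and the 10 genes together held between 201 and 631 reads. Folds are ratios of read shares, that is, of a gene's reads divided by its library's total. Their 95% intervals are exact Clopper-Pearson intervals, which cover counting error only and were not adjusted for the number of genes. A gene was called marked when its log2 ratio over its own line's input, computed on counts scaled to equal totals with a pseudocount of 5, reached 1. The labels do not say which methylation state either antibody binds. The catalogue number given on the H3K4 samples, ab8898, is known as that of an antibody to H3K9me3, a mark of silent chromatin, so the identity of the mark in the libraries labelled H3K4 cannot be settled from the labels.

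Endothelial cells line blood vessels, and they hold together through the junction proteins VE-cadherin (Cdh5) and PECAM1. Their growth is steered by vascular endothelial growth factor (VEGF), which acts on the receptor kinases encoded by Kdr and Flt1, and by angiopoietins, which act on Tek with its relative Tie1. In cells of other lineages such genes are often silent, but not always, since PECAM1 is also a protein of platelets and leukocytes. Expression was not measured in these libraries, so whether the genes are silent in mK3 and mK4 was not tested. Trimethylation of H3K27 by Polycomb proteins is a common mark of silent developmental genes. Methylation of H3K4 is typical of active promoters. In the embryonic kidney, vessels form next to the mesenchyme from which lines such as mK3 and mK4 come.

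Promoter windows of RefSeq (build GRCm38.p6, 250 bases before to 50 after a start) were matched for 7 of the 10 genes, all but Cdh5, Pecam1 and Vwf. They were read for CG pairs, the sites of DNA methylation, in which promoters are known to vary widely. Stretches upstream of 3 genes are shown, from the strand of the gene, with each CG pair in capitals. Erg had H3K27 above input in both lines, Tie1 had the least H3K4 per exon length in both lines, and Emcn followed the input of its region. The Erg stretch lies at chr16:95586601-95586843 on the minus strand, the Tie1 stretch at chr4:118489850-118490099 on the minus strand and the Emcn stretch at chr3:137340828-137341061 on the plus strand.
Erg: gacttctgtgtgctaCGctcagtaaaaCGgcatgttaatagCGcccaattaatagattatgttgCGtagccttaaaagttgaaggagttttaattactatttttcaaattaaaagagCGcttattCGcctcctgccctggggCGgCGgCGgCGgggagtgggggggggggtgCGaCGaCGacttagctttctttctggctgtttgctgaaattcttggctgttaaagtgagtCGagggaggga
Tie1: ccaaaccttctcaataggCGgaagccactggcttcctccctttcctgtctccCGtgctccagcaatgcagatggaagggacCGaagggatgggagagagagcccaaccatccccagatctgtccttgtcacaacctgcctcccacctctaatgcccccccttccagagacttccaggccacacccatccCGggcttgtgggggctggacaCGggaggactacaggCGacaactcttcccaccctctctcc
Emcn: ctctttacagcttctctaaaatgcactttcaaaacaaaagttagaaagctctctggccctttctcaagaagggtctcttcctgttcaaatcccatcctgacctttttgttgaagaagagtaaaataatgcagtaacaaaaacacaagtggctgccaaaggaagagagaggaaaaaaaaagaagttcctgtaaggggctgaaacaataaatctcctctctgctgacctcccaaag
These stretches held 14, 6 and 0 CG pairs in this order. Over the whole windows of 300 bases, Flt1 had 29 CG pairs, Kdr 19, Tie1 7, Eng 6, Tek 3 and Emcn 2, and the windows at the 3 listed starts of Erg had 16, 2 and 4. The median over all 32851 windows was 7 CG pairs, and 94.6% of them held at least 1. The letters GGAA, the core read by ETS factors such as the one encoded by Erg, were searched on both strands (GGAA or TTCC). They occurred 9 times in the Tie1 window, a number reached by 1.59% of all windows, 6 times at Emcn, 5 at Kdr, 4 at Eng and at Flt1, 2 at Tek, and 1, 4 and 2 times at the starts of Erg. At least 1 such match was found in 96.0% of all windows, so its presence does not set these genes apart.

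Summed over the 10 genes, H3K27 lay above input in both lines. Their summed reads were 631 for H3K27 and 201 for input in mK3, which is 1.65-fold over input (1.4 to 1.94). In mK4 they were 432 and 258 reads, 1.35-fold (1.15 to 1.58). The intervals of the lines overlap, and without Cdh5 the sums were 1.57-fold in mK3 and 1.4-fold in mK4. In mK3 the H3K27 share exceeded the input share at all 10 genes, and in mK4 at 8, against 49.7% and 47.1% of all genes. On the log2 scale the median member lay at 0.60 in mK3 and at 0.30 in mK4, where the median of all genes was 0.00 in both. The share of cells that carry a mark and the amount of it per cell cannot be told apart in such bulk libraries. Of the 10 genes, 2 were marked by H3K27 in each line, Cdh5 and Erg in mK3 and Tek and Erg in mK4. Over all genes, 10.3% were marked in mK3 and 9.06% in mK4, so on 10 genes these counts are near the background. In at least 1 line 3 of the 10 were marked, against 16.5% of all genes. Cdh5 was the 1 member marked in mK3 and not in mK4, as were 7.41% of all genes.

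**Figure D1:**
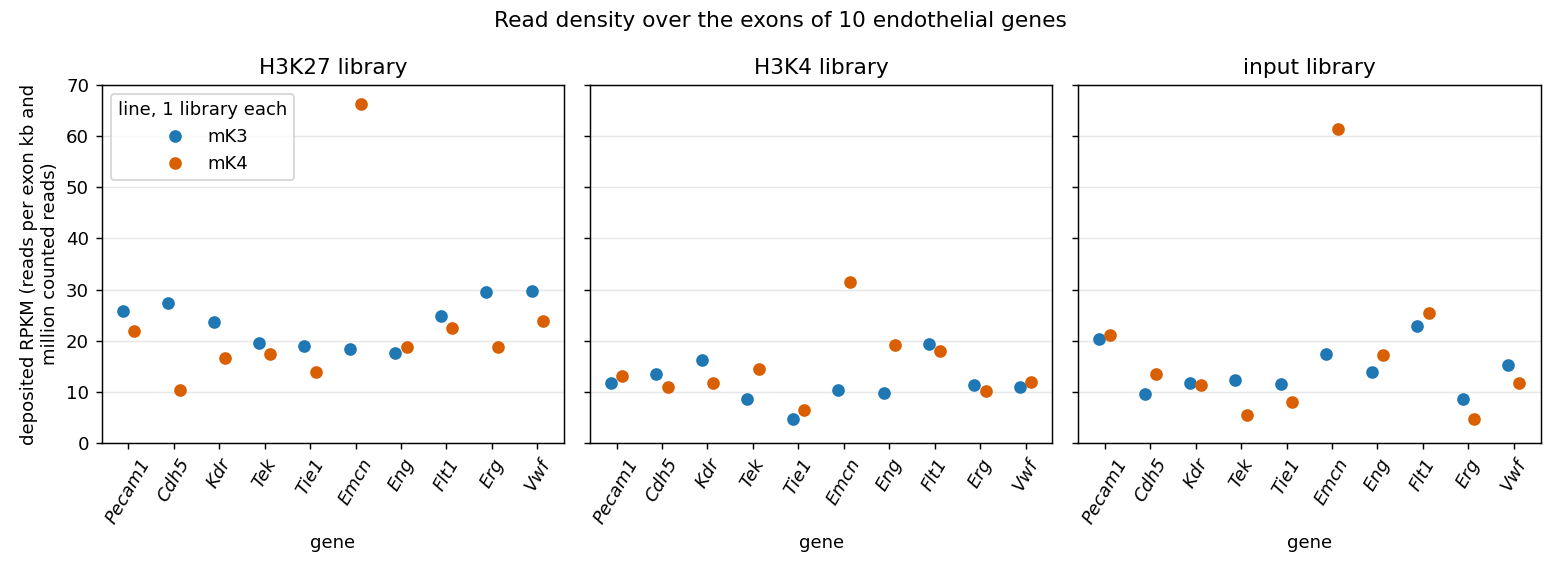
Deposited read density (RPKM, reads per kilobase of exon, scaled to the library total) over the exons of the 10 genes, 1 panel per kind of library, with 1 point per line and gene. Emcn in mK4 lies at 66.3 for H3K27 and 61.4 for input, far above the other members, and Cdh5 drops from 27.4 in mK3 to 10.4 in mK4 in the H3K27 panel.

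In the libraries labelled H3K4 the sum of the same genes lay at or under input, while single members lay on both sides. H3K4 exceeded input at 3 of the 10 in mK3 and at 5 in mK4, against 47.2% and 47.1% of all genes. The 318 H3K4 reads in mK3 were 0.828-fold the input share (0.691 to 0.992), and the 426 reads in mK4 were 0.894-fold (0.764 to 1.05). Tek in mK4 was the single member marked by H3K4 in either line, where 4.94% of all genes were marked in mK3, 3.69% in mK4 and 7.82% in at least 1 of them. The H3K27 share was above the H3K4 share at all 10 genes in mK3 and at 8 in mK4, against 52.6% and 48.7% of all genes. Summed over the members, H3K27 was 1.99-fold H3K4 in mK3 (1.74 to 2.29) and 1.5-fold in mK4 (1.31 to 1.72). The interval lay above 1 at 8 members in mK3, all but Emcn and Flt1, and at 4 in mK4, Pecam1, Tie1, Emcn and Vwf. The share of all genes with such an interval was not counted, so whether these counts are unusual cannot be said. These ratios set 2 antibodies side by side and are no measure of the amounts of the marks. At 12 housekeeping genes H3K4 over input was also small, with median log2 values of 0.27 in mK3 and -0.088 in mK4. A value near input in these exon counts is therefore no evidence that a gene lacks an active mark.

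**Figure D2:**
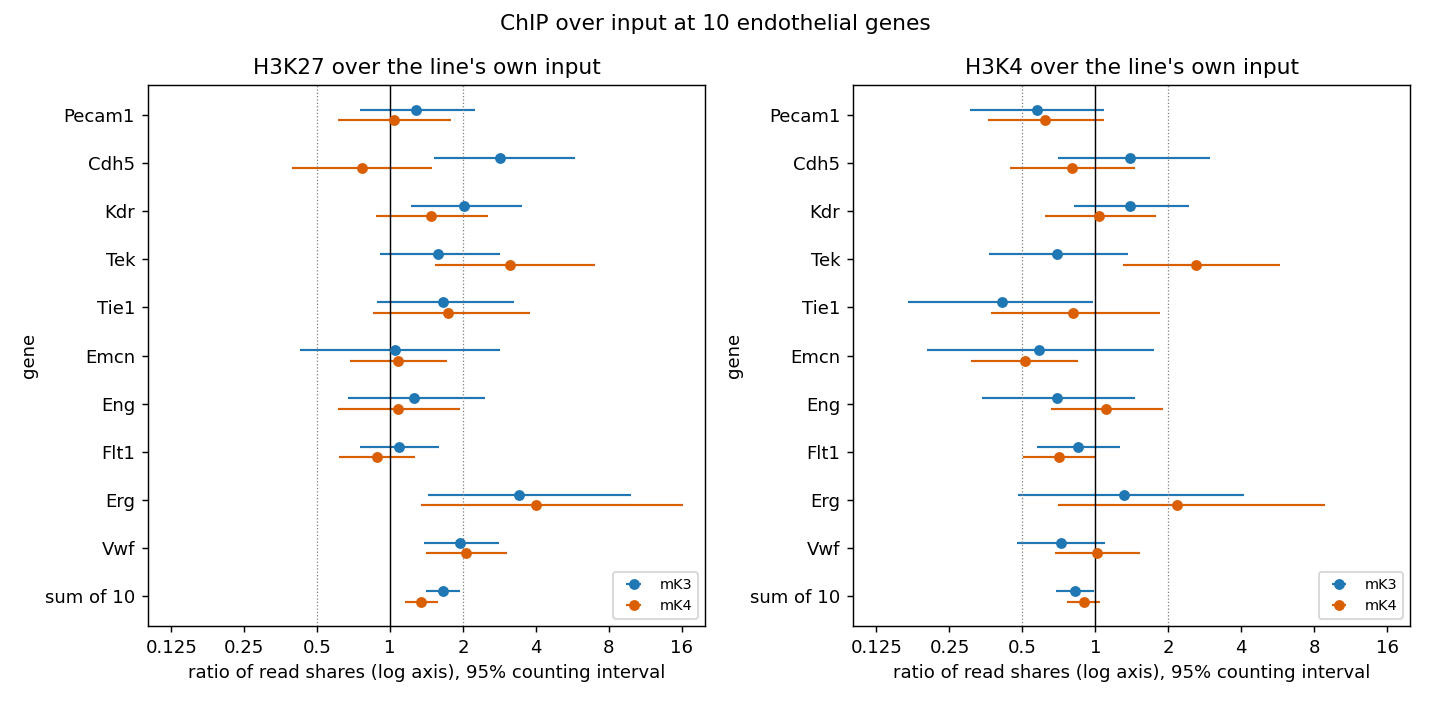
Ratio of read shares over the line's own input (log axis) for H3K27 on the left and H3K4 on the right, for each gene and for the sum of the 10, with 95% counting intervals and dotted lines at 0.5 and 2. For H3K27 the points of 10 genes in mK3 and 8 in mK4 lie right of 1. The whole intervals of Erg and Vwf do so in both lines, whereas Cdh5 is at 2.84 in mK3 and 0.765 in mK4.

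Cdh5, Pecam1 and Emcn encode surface proteins of the endothelial cell, and Cdh5 was the one with less H3K27 in mK4 beyond counting error. It encodes VE-cadherin, which joins neighbouring endothelial cells. Its H3K27 library held 65 reads in mK3 and 20 in mK4, its H3K4 library 32 and 31, and its input 12 and 21. H3K27 was high in mK3, and the 2 H3K4 values were close to each other. Against its own input H3K27 was 2.84-fold in mK3 (1.52 to 5.79) and 0.765-fold in mK4 (0.394 to 1.48). Between the lines the H3K27 share was 2.64-fold lower in mK4 (1.58 to 4.6). Cdh5 was the only member called lower, a call that needs a mark in at least 1 line and a 2-fold difference and that 0.934% of all genes received. Its log2 ratio of -1.22 lay at percentile 1.39 of all genes. It was -1.63 with the gene's own input ratio subtracted and -1.08 after subtracting the input ratio of its 20 neighbours, 10 on either side. Its mK3 input was 9.64 RPKM, where the median member had 13.2. With exon length as background in place of input the log2 H3K27 value in mK3 was 0.68, and Cdh5 was marked in neither line.

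Pecam1 and Emcn did not share this pattern. Pecam1, a junction protein of endothelium, platelets and leukocytes, had 51 and 35 H3K27 reads, 23 and 31 H3K4 reads and 21 and 27 input reads in mK3 and mK4. Its H3K27 was 1.28-fold input in mK3 (0.754 to 2.23) and 1.04-fold in mK4 (0.613 to 1.79), and neither differed from input beyond counting error. Emcn encodes endomucin, a sialoglycoprotein of venous and capillary endothelium. All 3 of its libraries were high in mK4, with 16 and 47 H3K27 reads, 9 and 33 H3K4 reads and 8 and 35 input reads. The folds in mK4 were 3.62 for H3K27 (2.02 to 6.84), 3.06 for H3K4 (1.43 to 7.26) and 3.52 for input (1.61 to 8.79). Over its own input Emcn was thus flat for H3K27, at 1.05-fold in mK3 and 1.08-fold in mK4. Its H3K4 lay under input, at 0.588-fold in mK3 (0.202 to 1.75) and 0.511-fold in mK4 (0.308 to 0.846). The 20 genes around it on chromosome 3 had input 2.66-fold higher in mK4 (2.29 to 3.1), H3K27 2.87-fold and H3K4 2.37-fold, and the whole chromosome had input 1.84-fold higher. The difference of Emcn between the lines was therefore as large in the input as in either mark.

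The genes next to Cdh5 were compared to see how far its H3K27 difference reached. Bean1, the next measured gene on one side, had 63 and 23 H3K27 reads, 28 and 27 H3K4 reads and 11 and 19 input reads. Its H3K27 share was 2.22-fold lower in mK4 (0.45-fold, 0.266 to 0.736). Profiles were also compared by the distance over the 6 libraries between log2 values centred on each gene's mean. Among 10227 genes with a mean scaled count of at least 20, Bean1 was the closest to Cdh5 (distance 0.276). This distance is computed from the same reads and is no separate result. Myh8, on chromosome 11, was nearly as close (0.281). The spans of Cdh5 and Bean1 do not overlap in RefSeq. On the far sides of this pair Cdh11 had 39 and 32 H3K27 reads and Tk2 9 and 14. The next gene after Tk2, Cklf, had 26 and 11, which is 1.92-fold lower in mK4. These 3 genes were named after their values were seen. Over all 20 neighbours H3K27 was 0.933-fold in mK4 (0.821 to 1.06) and input 0.908-fold (0.789 to 1.05). The lower H3K27 share in mK4 was thus seen at Cdh5 and Bean1 and not in the summed neighbourhood. The next most similar profiles were those of Myh8, Foxd2, Sh3rf2 and Vat1l, at distances between 0.28 and 0.33. Among the 8 other members above that level, which leaves out Erg, Kdr was the closest and ranked 120.

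**Figure D3:**
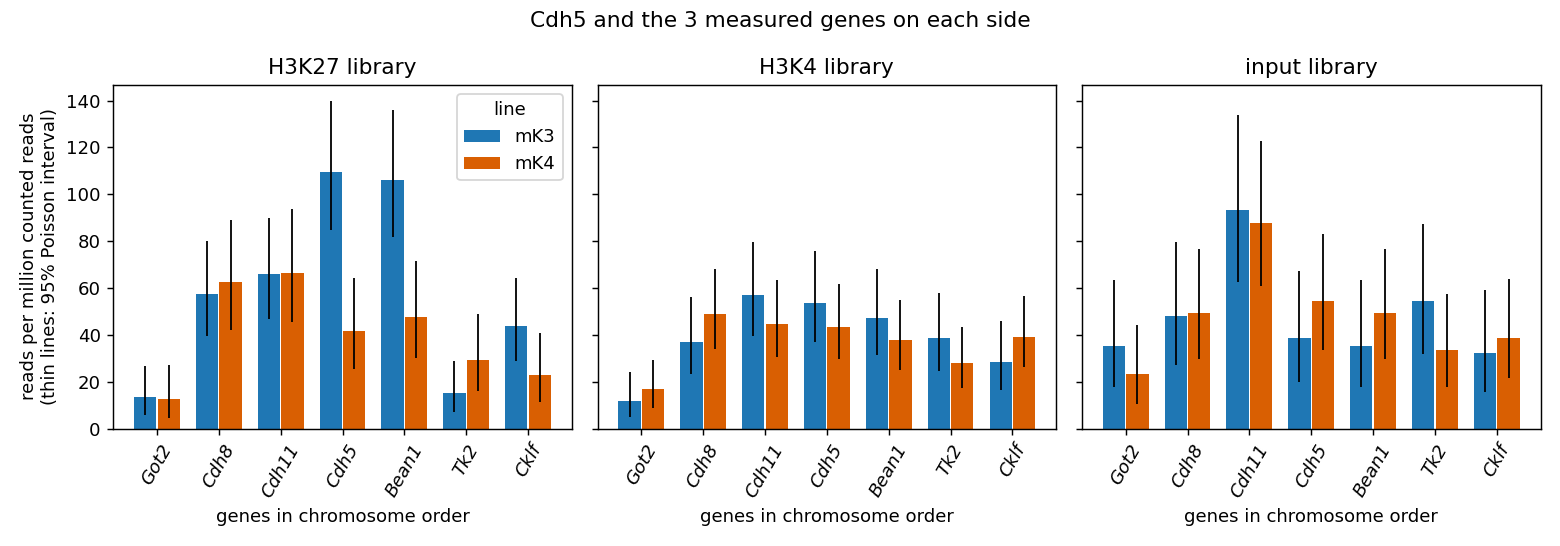
Reads scaled to the library total (RPM) at Cdh5 and the 3 measured genes on each side, in chromosome order, with 1 panel per kind of library, 1 bar per line and a thin line for the 95% Poisson interval. In the H3K27 panel Cdh5 and Bean1 stand high in mK3 and low in mK4, while their H3K4 bars differ little between the lines.

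Of the VEGF receptor genes, Kdr had H3K27 above input beyond counting error in mK3 and Flt1 in neither line, and the difference between the genes was not tested, with intervals that overlap in both lines. Kdr, which encodes VEGF receptor 2, the main signalling receptor, had 77 and 44 H3K27 reads, 53 and 46 H3K4 reads and 20 and 24 input reads in mK3 and mK4. H3K27 was 2.02-fold input in mK3 (1.22 to 3.49) and 1.47-fold in mK4 (0.876 to 2.53). With the pseudocount the mK3 log2 value was 0.92, just under the line for a marked gene. Between the lines Kdr H3K27 was 0.704-fold in mK4 (0.475 to 1.03), a difference within counting error. Flt1 encodes VEGF receptor 1, which binds VEGF tightly and damps its signal, and it had 93 and 68 H3K27 reads, 73 and 81 H3K4 reads and 45 and 62 input reads. Its H3K27 was 1.09-fold input in mK3 (0.752 to 1.59) and 0.881-fold in mK4 (0.615 to 1.26).

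Of the angiopoietin receptor genes, Tek (TIE2) had both H3K27 and H3K4 over input in mK4, where its input held few reads. It had 54 and 39 H3K27 reads, 24 and 48 H3K4 reads and 18 and 10 input reads. H3K4 was 0.697-fold input in mK3 (0.363 to 1.36) and 2.6-fold in mK4 (1.3 to 5.76), and H3K27 was 1.58-fold (0.909 to 2.85) and 3.13-fold (1.54 to 7.04). In mK4 both marks therefore passed the rule at Tek, as at 171 genes in all. The mK4 input was low here at 5.53 RPKM, against 12.4 in mK3. The 20 genes around Tek also had less of each library in mK4, with input at 0.679-fold (0.575 to 0.801), H3K4 at 0.668-fold and H3K27 at 0.617-fold. The part of the input in the over-input values of Tek was not tested. Between the lines the H3K4 share was 1.67-fold in mK4 with a lower bound near 1 (upper bound 2.85), input was 0.447-fold (0.185 to 1.02), and H3K27 was 0.89-fold (0.574 to 1.37). With exon length as background Tek was marked by neither antibody, with log2 values in mK4 of -0.15 for H3K4 and 0.09 for H3K27.

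Tie1, the partner receptor of Tek, had few H3K4 reads, 11 in mK3 and 18 in mK4, beside 44 and 26 H3K27 reads and 14 and 12 input reads. H3K4 in mK3 was 0.411-fold input (0.169 to 0.975), the lowest value of the list. H3K27 was 1.65-fold in mK3 (0.888 to 3.26) and 1.74-fold in mK4 (0.848 to 3.79), similar in both lines and within counting error of the input in each. The ratio of H3K27 to H3K4 shares in mK3, 4.02 (2.04 to 8.62), was the highest of the 10.

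Eng differed between the lines in the H3K4 library. It encodes endoglin, a co-receptor for BMP9 and TGF-beta ligands in endothelium. The H3K4 reads were 20 and 47, H3K27 36 and 31 and input 15 and 23. The H3K4 share was 1.96-fold in mK4 (1.14 to 3.49), but H3K4 lay at 0.697-fold input in mK3 (0.339 to 1.46) and 1.11-fold in mK4 (0.659 to 1.91), so Eng was not marked in either line. Its H3K27 was within counting error of input in both lines and did not differ between them beyond that error (1.06-fold, 0.635 to 1.76).

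**Figure D4:**
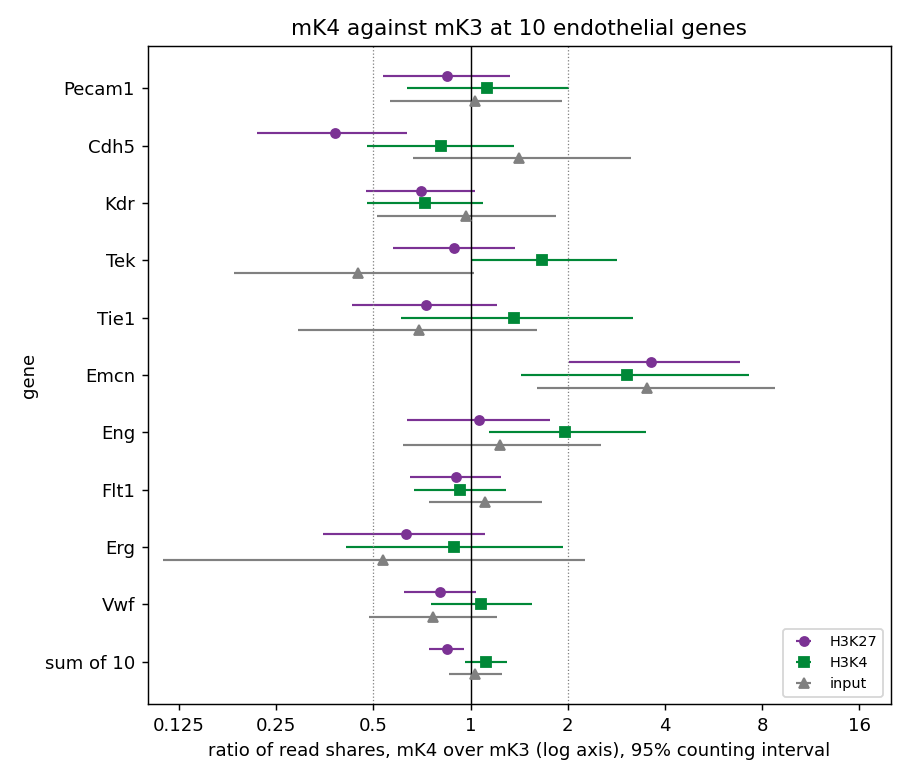
Ratio of read shares, mK4 over mK3 (log axis), for H3K27, H3K4 and input at each gene and for the sum of the 10, with 95% counting intervals and dotted lines at 0.5 and 2. For Cdh5 the H3K27 interval lies wholly left of 1 and those of H3K4 and input cross it, for Emcn all 3 intervals lie to the right, and the sum of the 10 lies at 0.844 for H3K27, 1.12 for H3K4 and 1.03 for input.

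Erg was the member with H3K27 over input in both lines by the 2-fold rule. It encodes an ETS transcription factor that keeps up the endothelial programme, Cdh5 included. It had 39 and 20 H3K27 reads, 15 and 16 H3K4 reads and 6 and 4 input reads. H3K27 was 3.41-fold input in mK3 (1.43 to 9.86) and 4.02-fold in mK4 (1.35 to 16.2). The intervals are wide because the input held so few reads, and with exon length as background the log2 values were 0.73 and 0.17. H3K27 between the lines was 0.632-fold in mK4 (0.349 to 1.11), within counting error.

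Vwf had the most H3K27 reads of the list in both lines. It encodes von Willebrand factor, the clotting protein stored in endothelial granules, and has the longest exon length of the list, 8869 bases. Its reads were 156 and 102 for H3K27, 58 and 75 for H3K4 and 42 and 40 for input. H3K27 was 1.95-fold input in mK3 (1.38 to 2.81) and 2.05-fold in mK4 (1.41 to 3.03), nearly the same in both lines. On the log2 scale with pseudocount these were 0.92 and 0.97, just under the line for a marked gene. The 20 genes around Vwf also had H3K27 over input, 1.73-fold in mK3 (1.49 to 2.02) and 1.68-fold in mK4 (1.44 to 1.96). Around the other 9 members this value lay between 0.782 and 1.25. The H3K27 level of Vwf thus stood in a stretch with raised H3K27, while that of Cdh5 in mK3 stood in one where H3K27 was 0.795-fold input (0.697 to 0.909).

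**Figure D5:**
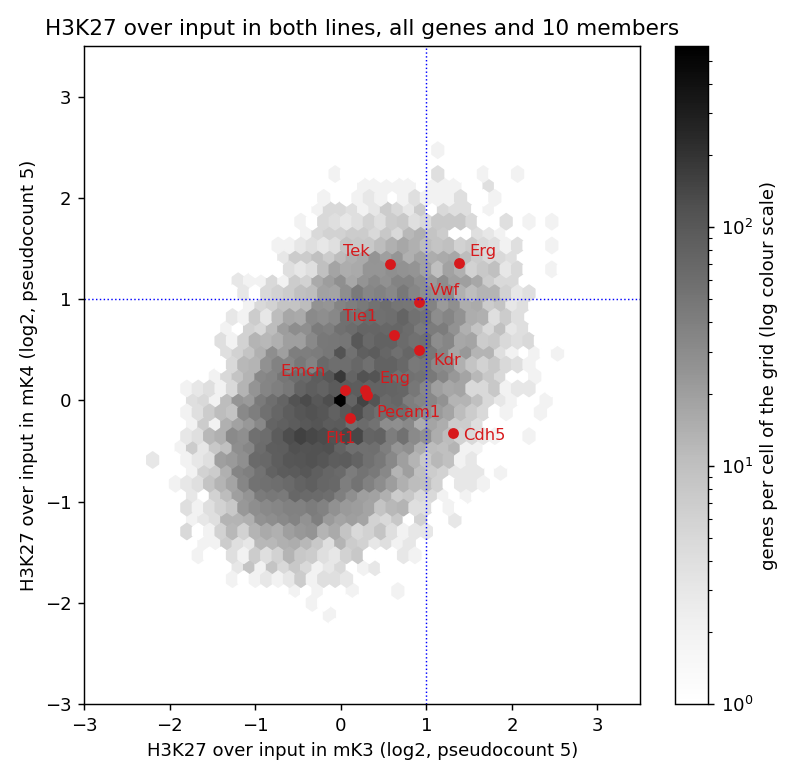
Log2 ratio of H3K27 over input in mK3 (x axis) and mK4 (y axis) for all genes as grey density and for the 10 genes as red points, with dotted lines at the value 1 that calls a gene marked. Erg lies past both lines, Tek past the mK4 line only and Cdh5 past the mK3 line only, at 1.31 and -0.32.

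Between the lines, the summed H3K27 share of the 10 genes was 0.844-fold in mK4 (0.745 to 0.955), and without Cdh5 it was 0.897-fold with an interval that holds 1 (0.788 to 1.02). The sum of all 10 had H3K4 at 1.12-fold (0.964 to 1.3) and input at 1.03-fold (0.856 to 1.25). H3K27 was lower in mK4 at 8 of 10 genes, where 54.3% of all genes were lower, with own input subtracted at 6, where 50.8% were, and with neighbour input subtracted at 5, where 51.1% were. The 10 nephron progenitor genes also had 8 lower in mK4, with a median log2 ratio of -0.49, so the count is not particular to the endothelial genes. The median log2 H3K27 ratio of the 10 was -0.26, beside -0.06 for all genes, and it was -0.11 with own input and -0.029 with neighbour input subtracted. Apart from Cdh5 and Emcn, no member had an H3K27 interval that lay off 1. For H3K4, 3 members had intervals above 1, Tek, Emcn and Eng. The share of all genes with an interval off 1 was counted for neither mark. No member was called higher or lower for H3K4, calls given to 0.424% and 0.392% of all genes. With own input subtracted H3K4 was higher in mK4 at 6 of 10 members, against 48.9% of all genes. Input was lower in mK4 at 5 of 10, against 49.9%. On the scale with pseudocount the input of 1 member, Emcn, was at least 2-fold higher and that of none at least 2-fold lower, against 7.26% and 6.2% of all genes. Leaving out any other single gene kept the interval of the sum below 1, and the lowest ratio was 0.772, without Emcn.

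Other vascular genes were read from lists of the same pathway. Of 15 genes of VEGF and angiopoietin signalling, H3K27 marked 1 in mK3 and 0 in mK4, where 10.3% and 9.06% of all genes were marked. H3K4 marked 0 in both lines, where 4.94% and 3.69% of all genes were marked. The median of the list for H3K27 over input, on the log2 scale, was negative in both lines, -0.39 in mK3 and -0.32 in mK4. The 1 marked gene was Flt4, the VEGF receptor 3 gene of lymphatic vessels, with 80 H3K27 reads on 8 of input in mK3 (5.25-fold, 2.54 to 12.6) and 52 on 20 in mK4 (2.09-fold, 1.23 to 3.69), and it was named after its values were seen. Among 32 endothelial surface and junction genes, H3K27 marked 6 in each line, against 10.3% and 9.06% of all genes, with medians of 0.43 and 0.48 for H3K27 over input. H3K27 exceeded input at 24 and 23 of the 32, against 49.7% and 47.1% of all genes. None of them was called between the lines. H3K4 marked 2 of them in mK4, where 3.69% of all genes were marked. These were Icam1, an adhesion receptor for leukocytes, with 22 reads on 4 of input (2.98-fold, 1.01 to 11.9), and the tight junction gene Cldn5, with 15 on 2 (4.06-fold, 0.945 to 36.6).

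Of 19 endothelial transcription factor genes, H3K27 marked 2 in mK3 and 3 in mK4, where 10.3% and 9.06% of all genes were marked. H3K4 marked 2 and 1, where 4.94% and 3.69% were, so that these counts lie close to the background. Klf2, a factor induced by blood flow, had 63 and 26 H3K4 reads, 2.91-fold lower in mK4 (1.81 to 4.78), beside 14 and 27 H3K27 reads (2.38-fold higher in mK4, 1.2 to 4.9). Klf2 was named because it was the 1 gene of the 19 called lower for H3K4 in mK4. That call was given to 0.392% of all genes, and the part of the input in the difference was not tested. Foxc2, a factor of lymphatic valves that mesenchyme also uses, had 205 and 148 H3K4 reads, 2.82-fold input in mK3 (1.99 to 4.1) and 2.23-fold in mK4 (1.54 to 3.3). Among 9 Notch genes of vessels, Dll4 was called lower for H3K27 in mK4, a call that 0.934% of all genes received. It encodes the Notch ligand of sprouting tip cells. Its 69 and 16 H3K27 reads were 3.5-fold lower in mK4 (2.01 to 6.46), with 16 and 25 H3K4 reads and 13 and 16 of input. Dll4 was named because it passed this call, and the list as a whole did not share its direction, with H3K27 higher in mK4 at 5 of the 9 and a median log2 ratio of 0.20. Notch4, an endothelial Notch receptor gene, was marked by H3K4 in mK4 with 112 reads on 21 of input (2.89-fold, 1.8 to 4.85), and its input was 2.84-fold lower in mK4. Of 6 lymphatic genes, which include Flt4 and Foxc2, H3K27 marked 2 in mK3 and 1 in mK4, and H3K4 marked 1, Foxc2, in each. Over all genes the shares were 10.3% and 9.06% for H3K27 and 4.94% and 3.69% for H3K4. On 6 genes these counts cannot be told from those shares.

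Genes next to the other members were named where a library differed at least 2-fold between the lines on 20 or more reads. All 6 genes around Emcn passed, each with more reads in mK4, for example Slc39a8 with 43 and 121 H3K27 reads and Ppp3ca with 7 and 35 input reads. Near Tek, Lrrc19 had 31 and 10 H3K27 reads, and the input of Ift74 was 9 and 25. Near Tie1, Cdc20 had 13 and 24 H3K27 reads and Tmem125 22 and 8. In the H3K4 libraries, Tmem165 near Kdr had 68 and 37 reads, Flt3 near Flt1 16 and 39, Kcnj15 near Erg 20 and 52 and Kcna5 near Vwf 9 and 38. Input was lower in mK4 at Ern1 near Pecam1 (22 and 12 reads), Ets2 near Erg (30 and 16) and Tnfrsf1a near Vwf (17 and 10). No gene within 3 of Eng passed.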

How the data were processed

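Reads were counted by the authors per gene row; the deposited counts are whole reads set against exon length, per the file headers, and the deposited RPKM is that count per kilobase of exon, scaled to the library's counted reads. The submitters' processing notes name the genome build mm9. The aligner, read length, annotation and handling of duplicates are not given in sources used here. Recomputed RPKM values matched the deposited ones. The 22088 rows gave 21937 genes after the highest row of each of 137 repeated symbols was kept. Counts were scaled to the mean total, 513622. Members had 4 to 62 input reads, which sets the width of the intervals.

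The members and gene lists were chosen with earlier results of these data known. Named genes are all 10 members, list genes called between the lines or marked by H3K4, up to 4 and 3 per list, near neighbours past 2-fold on 20 reads, and the 5 profiles most like Cdh5. Gene order came from a RefSeq table of GRCm38.p6 (19324 symbols matched, 2302 by synonym, 311 unmatched). Lists of mural, blood, nephron progenitor, podocyte, housekeeping and Polycomb reference genes were read for comparison. Alternatives were the pseudocount, TMM factors, median centring, a filter on low counts, exon length as background, summed rows and input subtraction. The fold computation was tested on simulated data. Python 3.11.15, numpy 2.4.6, pandas 2.3.3, scipy 1.17.1 and matplotlib 3.10.9 were used.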

Additional observations from a re-analysis of the deposited data

Results flagged for a closer look

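At 2 genes of the list a library lay above input in one line and below it in the other, with at least 1 of the values past 2-fold. Cdh5 H3K27 was 2.84-fold input in mK3 and 0.765-fold in mK4. Tek H3K4 was 0.697-fold input in mK3 and 2.6-fold in mK4. With 1 library per group neither difference was tested. The input of Cdh5 was 12 reads in mK3 and 21 in mK4, and that of Tek 18 and 10, so in both cases the background moved against the mark, and its part in the difference was not tested.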

How the results depend on the processing

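No paired analysis was possible because each group has 1 library and the result comes from no test. With exon length as background, 0 members were marked by H3K4 in mK4 (1 with input), 0 by H3K27 in mK3 and 1, Emcn, by H3K27 in mK4 (2 each with input), so that 1 member was called higher for H3K27 and 0 lower. The median log2 H3K4 value in mK4 was then -0.33, and that of Tek reversed to -0.15. A pseudocount of 10 left 0 members marked by H3K4 in mK4. With own input or neighbour input subtracted, 1 member, Tek, was called higher for H3K4, at 1.54 and 1.18. With neighbour input subtracted the median log2 ratios between the lines were 0.35 for H3K4 and -0.029 for H3K27. Over all genes, the pseudocount and the background moved the calls: H3K27 lower in mK4 was called at 754 genes with a pseudocount of 1, 70 with 10, 84 with exon length and 792 with own input subtracted, against 205, and H3K27 higher at 661, 84, 322 and 598, against 195. Marked by H3K27 were 3966 (mK3) and 3852 (mK4) genes with a pseudocount of 1, 1201 and 1076 with 10 and 523 and 771 with exon length, against 2251 and 1988. For H3K4 these were 2556 and 2110, 433 and 343, and 1260 and 1368, against 1083 and 810, and higher or lower was called at 531 and 524, 33 and 13, 311 and 106, and with own input 343 and 511, against 93 and 86. The sums over the 10 members stayed within their counting intervals in each alternative run and with each gene left out. Cdh5 was called lower for H3K27 in all alternatives but exon length, with log2 ratios from -1.63 to -1.08. The few reads per gene limit every single value.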

Other observations

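Lists of other cell types were read by the same rule, which called 10.3% (mK3) and 9.06% (mK4) of all genes for H3K27 and 4.94% and 3.69% for H3K4, and most of the counts lie near these shares. Of 12 mural cell genes, which mark the pericytes and smooth muscle around vessels, H3K27 marked 3 in mK3 and 1 in mK4, and H3K4 none in either. Of 13 blood and immune genes measured, H3K27 marked 1 in each line, and H3K4 marked 1 in mK3, Runx1, named after its value was seen. Of 10 nephron progenitor genes 1 was marked by H3K27 in mK3, 0 in mK4, and none by H3K4. Of 10 podocyte genes 2 were marked by H3K27 in each line, and H3K4 marked 0 in mK3 and 1 in mK4. This 1 gene was also called higher for H3K4 in mK4, a call given to 0.424% of all genes. The median log2 values for H3K27 over input in mK3 and mK4 were 0.27 and 0.54 for mural, 0.33 and 0.35 for blood, 0.25 and 0.53 for podocyte and 0.32 and 0.23 for nephron progenitor genes. In mK4 the first 3 of these lists lay above the 0.30 of the endothelial list. In mK3 H3K27 exceeded input at 9 of 10 progenitor and 8 of 10 podocyte genes, against 49.7% of all genes. In mK4 it did so at 5 and 6 of 10, nearer to the 47.1% of all genes. For mural genes the counts were 8 and 9 of 12 in mK3 and mK4, and for blood genes 9 of 13 in each line. Raised H3K27 was thus not particular to the endothelial genes. Among 16 developmental genes of other lineages used as a Polycomb reference, H3K27 marked 9 and 8, with medians of 1.24 in mK3 and 1.07 in mK4, above the 0.60 and 0.30 of the endothelial list. Among 12 housekeeping genes H3K27 marked none, with medians of -0.38 and -0.58. H3K4 marked 1 of these 12 in mK3 and 0 in mK4, with medians of 0.27 and -0.088 over input.

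The promoter feature shown for the list was also read over all genes with 1 RefSeq window and a mean scaled count of at least 10. Among the 2200 genes with the fewest CG pairs (0 to 8), the median log2 H3K27 ratio to input reached 0.38 in mK3 and 0.43 in mK4, and 17.8% and 18.0% were marked. Among the 2200 with the most (27 to 63), the medians were -0.30 and -0.35, and 5.91% and 5.59% were marked. The endothelial medians over all 10 genes were 0.60 in mK3 and 0.30 in mK4. Tie1, Eng, Tek and Emcn, with 7, 6, 3 and 2 CG pairs, fell in the lowest range of CG pairs, and Kdr and Flt1, with 19 and 29, did not. Cdh5, Pecam1 and Vwf had no window, and Erg had 3. The endothelial medians are therefore not over genes with few CG pairs, and how they stand to the medians of such genes was not tested. Exon reads and promoter windows are different stretches of DNA, and base composition of the exons was not read here.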
